A study of Caenorhabditis elegans with 4 samples.

Results

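Broad domains of H3K36me3, stretches of 10 kb or more in which histone H3 trimethylated at lysine 36 was called without long breaks, were described in whole worms of the Caenorhabditis elegans strain N2, the standard wild-type laboratory strain, at the L3 larval stage. ChIP-seq, the sequencing of DNA from immunoprecipitated chromatin, was done with an Abcam antibody against the mark in 2 samples, numbered 1 and 7 in the labels. Both came from N2 larvae grown in liquid culture, and each was called against its own input DNA sample, of which there were 2. Ground frozen worms had been crosslinked for 10 minutes in 1% formaldehyde, and libraries were made from fragments of 250 to 500 bp with 18 PCR cycles. Worms were pooled by culture and all tissues were mixed, so a domain may belong to any cell type of the larva. The labels do not say whether the 2 samples came from separate cultures.

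The domains were chosen from the 2 deposited peak lists, of 5973 peaks in replicate 1 and 6223 in replicate 7, with coordinates in the WormBase build WS190. Within each list, peaks with 500 bp or less between them were joined. The joined lists were intersected base by base, and intersected pieces with 500 bp or less between them were joined again. This gave 4580 shared regions, of which 204 (4.45%) were 10 kb or wider and form the set of broad domains. Peak positions chose the domains, so number, size and position are given as descriptions with no test.

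H3K36me3 is laid down along the bodies of transcribed genes by an enzyme that travels with RNA polymerase II, named MET-1 in this worm. A further enzyme, MES-4, keeps the mark on genes that are expressed in the germ line. Genes of C. elegans are short and closely packed, and some are transcribed together as operons. Genes under the domains are not named, because no gene annotation of WS190 was used here.

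The 204 domains covered 2.86 Mb, which was 17.3% of the 16.5 Mb in all shared regions and 2.86% of the 100.1 Mb spanned by the lists. Their median width was 12878 bp, with an interquartile range of 11068.75 to 15333.5 bp. The median over all 4580 shared regions was 2613.5 bp. A total of 76 domains were narrower than 12 kb, 58 reached 15 kb, 16 reached 20 kb and 4 reached 25 kb. The 10 widest held 9.71% of the length of the set. There was no break in the distribution at 10 kb, since 169 further shared regions measured 8 to 10 kb. The narrowest domains inside the threshold measured 10001 bp (chromosome IV 1953375 to 1963375), 10047 bp (chromosome III 468947 to 478993) and 10064 bp (chromosome II 9214827 to 9224890). The widest regions outside it measured 9985 bp (chromosome I 4175257 to 4185241), 9982 bp (chromosome I 11919740 to 11929721) and 9979 bp (chromosome IV 9696860 to 9706838).

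Not every domain was a wide peak in itself. Replicate 1 had 132 single peaks of 10 kb or more and replicate 7 had 97. In 71 domains both lists held a single peak of that width, in 31 replicate 1 alone did and in 17 replicate 7 alone did. The remaining 85 domains (41.7%) held no peak of 10 kb in either list and reached the threshold by the joining of narrower peaks. When peaks were joined only where they overlapped or touched, 69 domains remained, each over one of the 204.

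The widest domain measured 45927 bp and lay in the centre of chromosome I (4597878 to 4643804). Replicate 1 had 3 peaks over it, of 5097, 30298 and 10283 bp. Replicate 7 had 9 peaks over the same stretch, the widest of 11170 bp. It was 1.41 times as wide as the next domain, and peaks covered 98.8% of it in replicate 1 and 96.1% in replicate 7. The second, of 32465 bp on the left arm of chromosome I (3567746 to 3600210), held the most peaks of any domain in both lists. It held 8 peaks in replicate 1, the widest of 9362 bp, and 13 in replicate 7, the widest of 4395 bp, and so contained no peak of 10 kb in either.

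For the next 2 domains in width the lists went opposite ways. The domain of 28021 bp in the centre of chromosome III (6367961 to 6395981) held 5 peaks in replicate 1 and 2 in replicate 7, of 15467 and 12858 bp. The domain of 27597 bp on chromosome IV (4357521 to 4385117) was mainly 1 peak of 25161 bp in replicate 1, with another of 2807 bp, and was cut into 4 peaks in replicate 7. The next, of 24529 bp on chromosome I (4334521 to 4359049), was the widest of the domains that were a single peak in both lists, at 24537 bp in replicate 1 and 24669 bp in replicate 7. It was followed among uncut domains by 19624 bp on chromosome II (10248567 to 10268190) and 18374 bp on the X (4834588 to 4852961).

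The other 5 of the 10 widest were 24464 bp on chromosome II (8650955 to 8675418), 24212 bp on chromosome I (5244321 to 5268532), 24208 bp on chromosome III (5380648 to 5404855), 24181 bp on chromosome III (4922590 to 4946770) and 22006 bp on chromosome I (14101650 to 14123655). The first 2 of these held 3 peaks in each list, the next 3 and 2, the one after it 5 in each, and the last 2 in replicate 1 and 5 in replicate 7. Of the 10 widest, 8 lay in chromosome centres. On chromosome V the widest domain was 20074 bp near the left end (102856 to 122929), with 2 peaks in replicate 1 and 4 in replicate 7.

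Chromosome I carried the most domains, 61, followed by chromosome III with 49, chromosome II with 47 and chromosome IV with 29. Chromosome V carried 14 and the X carried 4. Per Mb of chromosome this was 4.05 domains on I, 3.56 on III, 3.08 on II, 1.66 on IV, 0.670 on V and 0.227 on the X. The share of the chromosome inside broad domains ran from 5.90% on I through 5.0% on III, 4.09% on II, 2.36% on IV and 0.915% on V to 0.308% on the X.

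This order was steeper than that of the mark as a whole. All shared regions covered 25.8% of chromosome III, 25.6% of I, 18.8% of II, 15.3% of IV, 9.89% of V and 8.41% of the X. Of the shared regions, 6.37% were broad on chromosome II, 6.03% on I, 5.26% on III, 3.99% on IV, 2.18% on V and 0.755% on the X, against 4.45% over all of them. Chromosome V and the X had nearly the same number of shared regions per Mb, at 30.7 and 30.1, while broad domains numbered 14 and 4. Domain width varied less between chromosomes, with medians from 12575 bp on chromosome II to 13278 bp on III, and 12609.5 bp for the 4 of the X. The rule cuts off every width below 10 kb, so these medians follow the threshold. Over all domains the median was 10282 bp with a minimum width of 8 kb and 14563.5 bp with 12 kb.

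**Figure D1:**
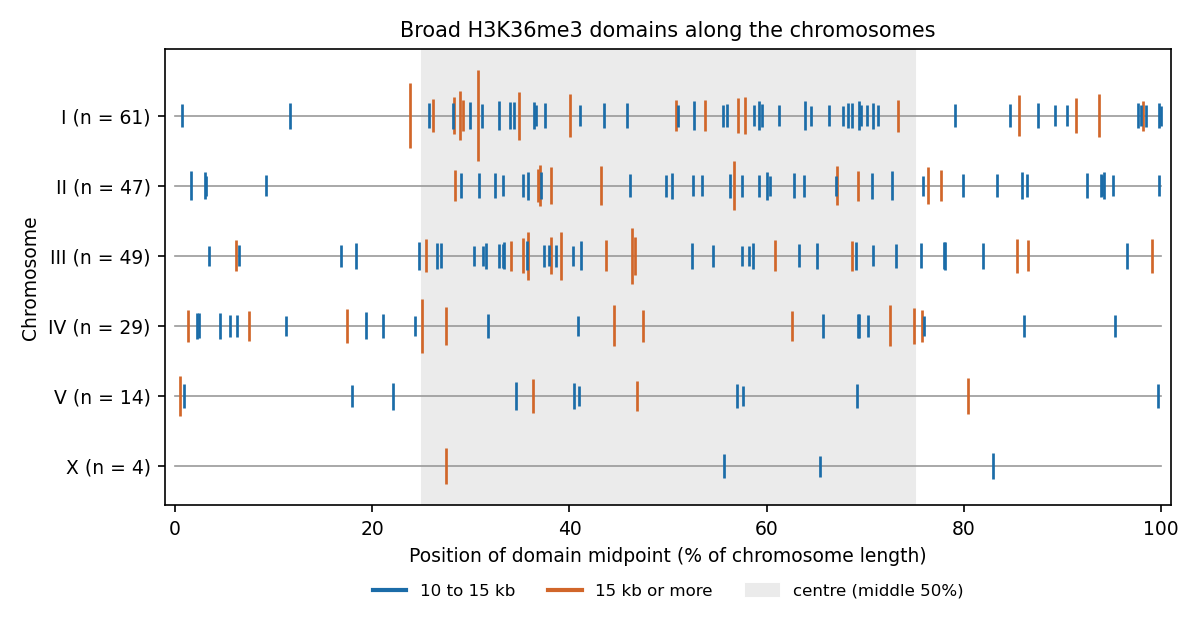
Each tick is the midpoint of 1 broad domain by its position as a percentage of chromosome length, with tick height proportional to domain width, blue under 15 kb and orange from 15 kb, and the middle 50% of each chromosome shaded. Chromosome I has 61 domains with many in the shaded centre, chromosome V has 14 and the X has 4.

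The X chromosome, which is largely silent in the germ line and dosage-compensated in body cells, had 0.0936 times as many broad domains per Mb as the autosomes (2.42 per Mb). The ratio was 0.612 for shared regions per Mb and 0.462 for covered length. Each list alone gave a similar ratio, 0.106 in replicate 1 and 0.0971 in replicate 7. It rose to 0.142 with a minimum width of 8 kb and to 0.288 when only touching peaks were joined, and it rests on 4 domains. They measured 18374 bp (4834588 to 4852961), 13094 bp (14611223 to 14624316), 12125 bp (9810196 to 9822320) and 10724 bp (11522553 to 11533276). The X domain of 18374 bp was a peak of 18386 bp in replicate 1 and 18466 bp in replicate 7. All 4 were a single peak in both lists, against 34 of the 200 on the autosomes. Among shared regions of 5 to 10 kb, 66.7% of the 45 on the X were a single peak in both lists, against 44.5% of 445 in autosome centres and 26.9% of 290 in autosome arms.

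Autosome centres, the middle 50% of each autosome, held 130 domains and autosome arms 70. The centres of autosomes are rich in conserved and essential genes, as background. The density was 3.15 domains per Mb in centres and 1.70 in arms, a ratio of 1.86. Shared regions were about as dense in both, at 50.5 and 47.7 per Mb, and 6.24% of those in centres were broad against 3.56% of those in arms. The ratio depended on the list. Replicate 1 alone gave 163 broad regions in centres and 145 in arms, a ratio of 1.12, and replicate 7 alone gave 159 and 82, a ratio of 1.94. The mean of the lists taken alone was 1.53 ± 0.576 (SD, n = 2). It was 1.24 for the union of the lists and 3.64 when only touching peaks were joined.

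The single chromosomes differed in this ratio. Chromosome I had 44 domains in its centre and 17 in its arms, 14 of them in the right arm and 3 in the left. Chromosome III had 35 in the centre, 6 in the left arm and 8 in the right. Chromosome II had 30 in the centre, 13 in the right arm and 4 in the left. On chromosome IV the order was the other way, with 13 in the centre, 12 in the left arm and 4 in the right, although shared regions covered 18.0% of its centre and 12.6% of its arms. Chromosome V had 8 in the centre, 4 in the left arm and 2 in the right. The order on these 2 chromosomes depended on the list. For chromosome IV, replicate 1 alone gave 17 in the centre and 28 in the arms, and replicate 7 alone gave 20 and 16. For chromosome V the numbers were 9 and 11 in replicate 1 and 12 and 8 in replicate 7. On chromosomes I, II and III the centre held more in either list, though by little on II in replicate 1. Centre and arm counts in replicate 1 were 52 and 37 on I, 38 and 35 on II, and 47 and 34 on III. In replicate 7 they were 51 and 20, 34 and 19, and 42 and 19. On the X, 3 lay in the centre, 1 in the right arm and 0 in the left arm. The domains nearest to a chromosome end, as far as the last peak marks it, were both on the right end of chromosome I, at 15042248 to 15052407 and 15018212 to 15030636. The next was on the right end of chromosome II, at 15232905 to 15243437.

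**Figure D2:**
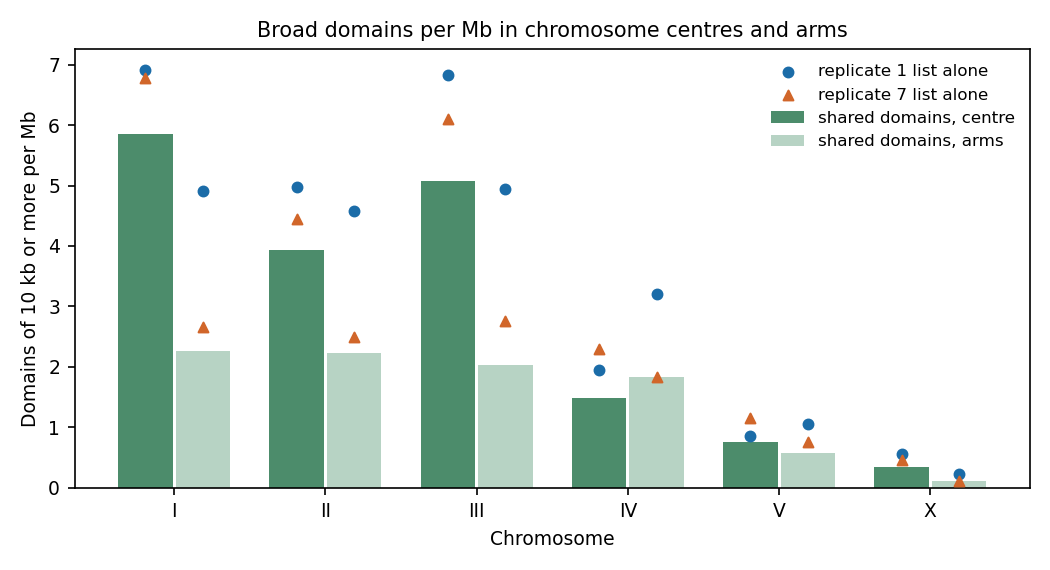
Broad domains per Mb in the centre (dark bars) and arms (light bars) of each chromosome for the shared set, with the rule applied to the list of replicate 1 alone (circles) or replicate 7 alone (triangles). Over arms of I, II, III and IV the circles lie well above the triangles, whereas over the centres the lists lie closer together.

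The spacing of the domains varied widely. The gap to the nearest other broad domain had a median of 94447.5 bp, an interquartile range of 38264 to 262823.75 bp and a minimum of 607 bp. That smallest gap, on chromosome II, was a break in replicate 1 only. Replicate 7 had 1 joined region over the domains on both sides of it (14346114 to 14369002). A total of 62 domains (30.4%) had another within 50 kb, against 24.6% of all shared regions and 24.3% of those under 10 kb. This comparison was not matched by chromosome. Chromosome V and the X held 642 and 530 of the 4580 shared regions but 14 and 4 of the 204 domains. Among domains, the share was 33.1% in autosome centres, 27.1% in autosome arms and 0 of 4 on the X. It was 19.6% within 25 kb and 51.5% within 100 kb. It was 8.70% when only touching peaks were joined, 20.3% with a minimum width of 12 kb and 30.9% with the upper 50% of peaks by score, settings that gave 69, 128 and 149 domains.

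Linking domains across gaps of 50 kb or less gave 28 chains of 2 or more domains. Of these, 23 were pairs, 4 had 3 members and 1 had 4, and 142 domains stood alone. Chains numbered 10 on chromosome I, 9 on III, 6 on II and 3 on IV, and there were 0 on V and the X. The chain of 4 spanned 121.5 kb on the right arm of chromosome I (14702546 to 14824050), with gaps of 22.5, 26.2 and 24.0 kb, and domains made up 40.2% of it. In the chain of 96.2 kb on chromosome III (4850537 to 4946770), a gap of 628 bp separated its last 2 domains, just beyond the joining distance of 500 bp. Only replicate 7 had this break, since replicate 1 had 1 joined region over both domains (4907405 to 4946909). Another on chromosome III spanned 74.1 kb (4525100 to 4599199). A chain of 62.8 kb on chromosome II (5616867 to 5679619) was the most compact of those with 3 or more members, with gaps of 6.37 and 5.39 kb and 81.3% of its length in domains.

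On a wider scale the domains were uneven. Of 103 windows of 1 Mb, 34 had no domain and 13 had 5 or more, and these 13 held 84 of the 204. Chromosome III from 4 to 5 Mb had 10 domains, which together measured 142 kb. Chromosome I had 8 in each of the windows from 4 to 5, 8 to 9 and 10 to 11 Mb, and the first of these held 158 kb of domains, more than any other window. Windows without a domain were 14 of 18 on the X and 10 of 21 on chromosome V, against 1 of 16 on chromosome I. The longest stretches without one were 4.96 Mb (4852962 to 9810195) and 4.83 Mb (1 to 4834587) of the X and 4.01 Mb of the right part of chromosome V (16814007 to 20828323). These stretches were not free of the mark, since they held 138, 161 and 111 narrower shared regions, over 7.41%, 9.02% and 7.09% of their length. On chromosome IV a stretch of 2.62 Mb (8301369 to 10919861) had no broad domain while 17.1% of it lay in 125 narrower shared regions.

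The surroundings of the domains were measured in the same way. Within 50 kb on either side of a domain, shared regions covered a median of 24.6% in autosome centres and 22.5% in autosome arms. Around shared regions under 10 kb the medians were 21.8% and 20.1%. Autosomes were pooled in these medians, although their total cover by shared regions ran from 9.89% on chromosome V to 25.8% on III. The gap from a domain edge to the next shared region had a median of 5997 bp, and it was 5912 bp for the narrower regions. Of 408 domain edges, 68 (16.7%) had the next shared region beyond 500 bp and within 1000 bp. Joining within 1000 bp gave 335 domains.

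The lists cut the domains into different numbers of peaks. Replicate 1 had 431 peaks over the 204 domains, a mean of 2.11 per domain, and replicate 7 had 527, a mean of 2.58. In replicate 1, 63 domains were a single peak, 80 held 2 peaks, 46 held 3 and 15 held 4 or more, up to 8. In replicate 7, 48 were a single peak, 68 held 2, 46 held 3 and 42 held 4 or more, up to 13. The median was 2 in both. A total of 38 domains (18.6%) were a single peak in both lists, against 74.7% of all shared regions. The share was lower in wider regions, at 98.6% of those under 2 kb, 73.8% from 2 to 5 kb and 39.2% from 5 to 10 kb.

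The number of peaks was the same in both lists for 103 domains (50.5%). It was higher in replicate 7 for 72 (35.3%) and higher in replicate 1 for 29 (14.2%). Over all shared regions the shares were 10.5% for replicate 7 and 4.21% for replicate 1. Per length the domains were cut about as often as shared regions of 5 to 10 kb and more often than narrower ones. Cuts per 10 kb numbered 0.794 in replicate 1 and 1.13 in replicate 7, and the values for shared regions of 5 to 10 kb were 0.755 and 1.06. Regions of 2 to 5 kb had 0.501 and 0.732 cuts per 10 kb. Among domains the counts differed by 3 or more peaks in 17. The domain with the most peaks in replicate 1 after the one of 32465 bp was 18564 bp on chromosome I (8687509 to 8706072), with 6 and 5. In replicate 7, 6 domains held 6 peaks, and the widest of these was 20332 bp on the right arm of chromosome I (12879195 to 12899526), with 2 peaks in replicate 1.

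Arms and centres of the autosomes were cut differently in replicate 7. In the arms 41 of 70 domains had more peaks in replicate 7 and 9 had more in replicate 1, and the mean number of peaks was 2.13 in replicate 1 and 3.20 in replicate 7. In the centres 31 of 130 had more in replicate 7 and 20 more in replicate 1, with means of 2.14 and 2.30. Cuts per 10 kb in replicate 7 were 1.64 in arms and 0.905 in centres, and in replicate 1 they were 0.842 and 0.793. Shared regions of 5 to 10 kb showed the same contrast, with 1.53 cuts per 10 kb in arms and 0.832 in centres in replicate 7, and 0.814 and 0.735 in replicate 1. When only gaps over 100 bp were counted as cuts, a choice made after the data had been seen, replicate 7 exceeded replicate 1 in 33 arm domains and fell short in 13. In the centres the order then turned, with 20 domains higher in replicate 7 and 29 higher in replicate 1. This compares 2 libraries, and domains are not replicates. The labels and files used here state neither library depth nor calling settings.

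**Figure D3:**
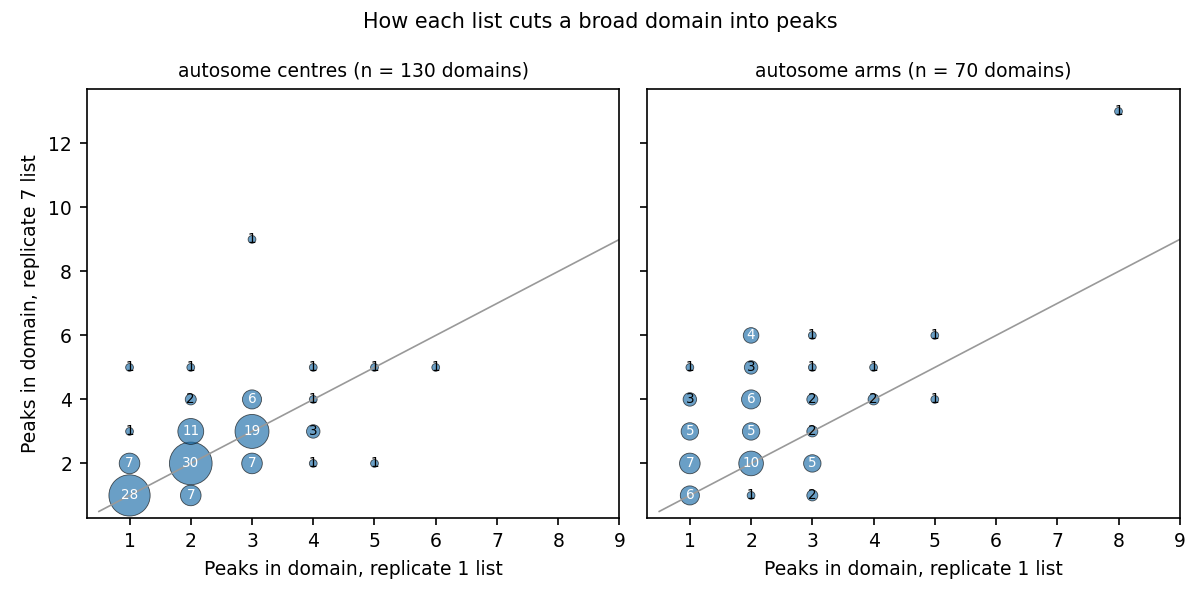
Number of replicate 1 peaks (x axis) and replicate 7 peaks (y axis) in each broad domain, for autosome centres (left, 130 domains) and autosome arms (right, 70 domains); circle area and the printed number give the domains at that pair of counts, and the line marks equal counts. In the arms 41 domains lie above the line and 9 below it, and in the centres 31 and 20.

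Peaks nearly filled the domains. They covered 98.2% of the total domain length in replicate 1 and 97.9% in replicate 7, with a lowest value for a single domain of 93.7% and 90.0%. In the arms the values were 98.2% and 96.9%, and in the centres 98.1% and 98.3%. Over all shared regions peaks covered 98.7% and 98.4%, and over those of 5 to 10 kb 98.3% and 97.9%. The domains were thus not filled more than shared regions in general. Joining limits a gap inside a domain to 500 bp by construction. Within that limit the 227 gaps of replicate 1 had a median of 204 bp and the 323 of replicate 7 a median of 166 bp. Gaps of 100 bp or less numbered 49 in replicate 1 and 107 in replicate 7.

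Inside the domains, many cuts fell at the same place in both lists. Cuts in narrower shared regions were not compared in this way, so this is not shown to be particular to the domains. Of the replicate 1 gaps, 158 (69.6%) overlapped a replicate 7 gap in the same domain, and 158 of the replicate 7 gaps (48.9%) overlapped one of replicate 1. Of the 131 domains cut in both lists, 118 (90.1%) had at least 1 cut in common. A further 25 domains were cut in replicate 7 alone and 10 in replicate 1 alone. Gaps with such a partner had a median of 258.5 bp in replicate 1 and 205.5 bp in replicate 7, against 108 and 122 bp for gaps without one. A longer gap overlaps another more readily, so part of this difference follows from the definition. Some gaps without an overlap lay close to one of the other list. By midpoints, 172 gaps of each list were within 200 bp of a gap in the other. In autosome arms 35.1% of the 154 gaps of replicate 7 had a partner, against 61.5% of 169 in the centres. For replicate 1 the shares were 68.4% of 79 and 70.3% of 148. On chromosome III, the domain of 24181 bp held 5 peaks in each list, with widths in order of 3362, 4039, 1408, 2543 and 11648 bp in replicate 1 and 3045, 4362, 1478, 2596 and 11625 bp in replicate 7.

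**Figure D4:**
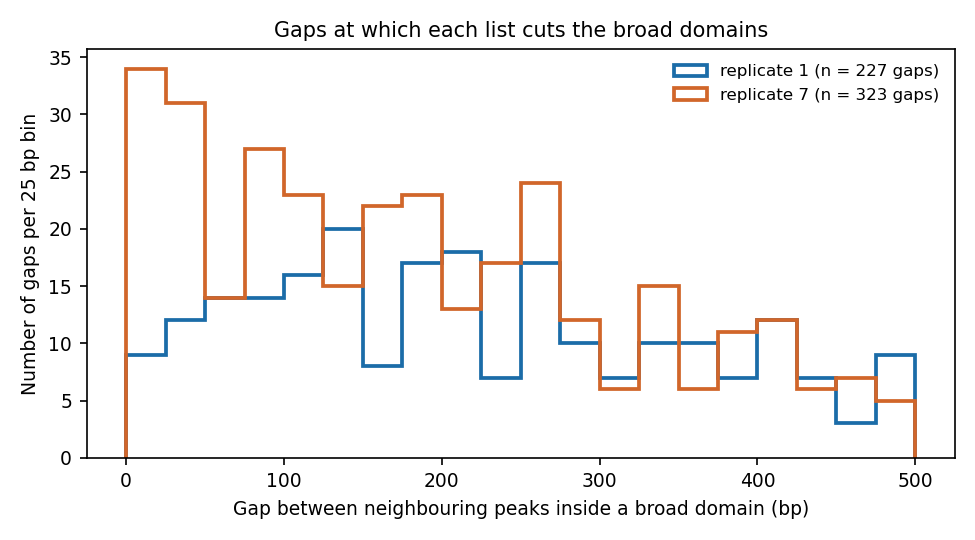
Number of gaps between neighbouring peaks inside broad domains, in bins of 25 bp, for replicate 1 (blue, 227 gaps) and replicate 7 (orange, 323 gaps). The lists differ most among gaps of 100 bp or less, of which replicate 1 has 49 and replicate 7 has 107.

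The outer edges of the domains were close in both lists. Each domain lay in 1 joined region of each list by construction. The edges of these regions differed by a median of 103.5 bp between the lists, and 71.8% of 408 edges differed by 200 bp or less. For shared regions under 10 kb the values were 130 bp and 62.4%, and for those of 5 to 10 kb they were 113 bp and 67.5%. Both edges were within 200 bp in 107 of the 204 domains (52.5%), which was 62.3% of those in autosome centres and 31.4% of those in autosome arms. At 45 edges the lists differed by more than 2 kb, up to 24948 bp. Replicate 7 extended beyond replicate 1 at 211 edges and replicate 1 beyond replicate 7 at 194. The order differed by zone, with 145 and 112 edges in autosome centres and 60 and 80 in autosome arms.

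Each list alone held more broad regions than the shared set, which the rule favours, since intersection can shorten a region but not widen it. The rule gave 315 in replicate 1 and 246 in replicate 7, a mean of 280.5 ± 48.8 (SD, n = 2). In replicate 1, 112 of the 315 overlapped no shared broad domain, and 75 of these lay in autosome arms, where they made up 51.7% of 145. In autosome centres 34 of 163 (20.9%) overlapped none. In replicate 7, 43 of 246 overlapped none, with 13 of 82 (15.9%) in arms and 29 of 159 (18.2%) in centres. These regions were marked in the other list too. Replicate 7 peaks covered a median of 83.8% of the 112, of which 94 were split into 2 or more shared regions and 0 had none. Replicate 1 peaks covered a median of 92.5% of the 43, of which 32 were split. In each list 1 such region was covered by less than 50% in the other.

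The authors' score, whose unit the files do not state, was higher for peaks in broad domains. Its median was 3100 for the 431 peaks of replicate 1 and 2081 for the 527 of replicate 7, whereas the other peaks of each list had medians of 729 and 559. Scores of 3100 or more, where many peaks share the same value, were held by 52.7% and 38.7% of the peaks in domains and by 14.2% and 11.2% of the others. The peaks in domains were also wider, with medians of 5615 and 4178 bp against 2225 and 2055 bp, so that score and width were not separated. In 133 domains both lists had a peak scoring 3100 or more, and in 30 neither did. In the widest domain the replicate 1 peaks scored 3100, 878 and 1755, the second being its peak of 30298 bp. Of the 9 replicate 7 peaks over it, 4 scored 3100 and the lowest scored 761. The lowest top score of a domain in replicate 1 was 230 (chromosome III 11751398 to 11768658), where replicate 7 reached 2548. In replicate 7 it was 249 (chromosome IV 10919862 to 10935249), where replicate 1 reached 3100. The domain of 24208 bp on chromosome III was low in both lists, with top scores of 974 in replicate 1 and 321 in replicate 7.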

How the data were processed

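ChIP-seq peaks of H3K36me3 were taken from 2 peak lists, 1 for each immunoprecipitated sample, and the samples were not pooled. Per the file headers, positions refer to WormBase build WS190. The peak names and the names of the lists carry the name of the caller MACS, while the source column reads MA2C. The peaks were therefore taken as MACS calls, and the MA2C entry is left unexplained. The submitters' processing notes name BWA, which aligns reads. Apart from a version tag of MACS in the names of the lists, no version or setting is stated in the labels or files. The score of each peak was deposited by the authors without a stated unit and was used to describe or rank peaks within a list. Read counts are not part of the lists, so the depth is unknown. The inputs entered only through the authors' peak calling.

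Domains were built by joining within 500 bp, intersection, joining again and a minimum width of 10 kb. A peak belonged to a domain if it overlapped it by 1 bp. The end of the last peak in the 2 lists stood for the end of each chromosome. Regions were placed by their midpoint. The members, and the rules for what is named and compared, were chosen with earlier results of these data known. The regions named by rule are the 10 widest domains, the widest on each chromosome, all on the X, the 3 cut into most peaks in each list, the 3 widest that are a single peak in both, the 3 chains with the most domains (ties by span), the 3 nearest to a chromosome end and the 3 on each side of the threshold. Other regions, windows and stretches were chosen after their values were seen. No tests were run, because the lists that chose the domains are those described. The SD over the 2 lists may be technical. Python 3.11.15 with numpy 2.4.6 and pandas 2.3.3 was used. The joining and intersection code was tested on 60 pairs of simulated lists against base-by-base counting, with 0 pairs differing.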

Additional observations from a re-analysis of the deposited data

How the results depend on the processing

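The number of domains followed the rule. It was 69, 139 and 335 with joining of touching peaks only, within 250 bp and within 1000 bp, 373 and 128 with minimum widths of 8 and 12 kb, 374 for the union of the lists and 149 with the upper 50% of peaks by score. In that order the total length was 853, 1819, 4953, 4374, 2037, 5365 and 2053 kb, against 2860 kb. The median width was 11579, 12110 and 13226 bp for the joining distances and 10282 and 14563.5 bp for the minimum widths. Leaving out each replicate gave 246 to 315 domains, 3508 to 4414 kb in all, medians of 12662 to 13133 bp, a ratio of autosome centres to arms of 1.12 to 1.94, a ratio of X to autosomes of 0.0971 to 0.106, and 37.8 to 41.3% of domains with another within 50 kb. Centres exceeded arms under every setting run, from 1.12 in replicate 1 alone to 3.64 with touching peaks only, and the ratio was 1.24 for the union. The X stayed below the autosomes, at ratios of 0.288, 0.139 and 0.0709 for the joining distances, 0.142 and 0.112 for the minimum widths and 0.129 with the upper 50% of peaks. The share with another domain within 50 kb was 8.70, 21.6 and 45.1% for the joining distances, 46.4 and 20.3% for the minimum widths and 48.7% for the union; it was 19.6% within 25 kb and 51.5% within 100 kb. Domains with more peaks in replicate 7 and those with more in replicate 1 numbered 40 and 19 with joining within 250 bp, 126 and 44 within 1000 bp, 114 and 47 from 8 kb, 50 and 18 from 12 kb, 150 and 53 for the union and 35 and 19 with the upper 50% of peaks. Both were 0 with touching peaks only, where a domain can hold no gap by construction. They were 53 and 42 when only gaps over 100 bp counted as cuts, an alternative chosen after seeing the data. Each other setting changes the set of domains itself, and the cause of the shifts in the ratios was not tested. No paired analysis was possible because both immunoprecipitations belong to 1 group and the inputs have no values here. With no counts, regions below the authors' threshold cannot be compared.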
